A study of Mus musculus with 12 samples.

Results

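Hspe1, Hspd1, Hspa9, Trap1, Clpp and Lonp1, which encode mitochondrial chaperones and proteases, were followed together with Hspb1, Cryab, Hsp90aa1 and Hspa8, which encode heat-shock proteins of the cytosol. The members were the 15 probes of the deposited value table whose platform symbol is one of these 10 genes, of 32443 probes that carry 1 symbol and stand for 19437 genes. RNA came from gastrocnemius, a calf muscle, of male mice 12 weeks old of C57BL6/J x sv129 strain, and was hybridised to 12 two-dye Agilent arrays. Ppargc1a and Ppargc1b encode the coactivators PGC-1alpha and PGC-1beta, which raise transcription of mitochondrial genes. The alpha arrays set PGC-1alpha -/- mice against PGC-1beta f/f mice, the floxed controls without Cre. The beta arrays set PGC-1beta f/f/Mlc1fCre mice, whose Cre is driven by the Mlc1f promoter of skeletal muscle fibres, against the same kind of control. The double arrays set PGC-1alpha-/- beta f/f/Mlc1fCre mice against floxed controls, and the direct arrays set those double knockout mice against PGC-1alpha -/- mice. The labels give the floxed PGC-1beta gene for every genotype but PGC-1alpha -/-. There were 3 arrays of each kind, with the knockout, or the double knockout on the direct arrays, in Cy5 and the reference in Cy3. The labels do not say whether the arrays hold separate mice, so every p-value measures array-to-array spread, which may be technical.

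Most mitochondrial proteins are made in the cytosol and imported unfolded. HSPA9 (mitochondrial HSP70) pulls them through the inner membrane, and the HSPD1 and HSPE1 complex (HSP60 and HSP10) closes around them while they fold. LONP1 and CLPP, the peptidase that works with the unfoldase CLPX, degrade damaged matrix proteins, and TRAP1 is the HSP90 of the matrix. In the cytosol HSPA8 is the constitutive HSP70 and HSP90AA1 the inducible HSP90, while HSPB1 and CRYAB are small heat-shock proteins that are abundant in muscle and bind unfolding sarcomere and filament proteins. Heat-shock factor 1 drives the cytosolic genes and Hspd1 and Hspe1 under heat, and ATF4, ATF5 and CHOP take part in the response to unfolded proteins in mitochondria.

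Hspe1 and Hspd1 lie head to head on chromosome 1 and share the stretch between their starts. It is printed because these partners gave different ratios below, and the stretch before Hspb1 is printed because Hspb1 had the highest ratio of the cytosolic members on the alpha arrays. Both come from RefSeq (GRCm38.p6) and are written on the plus strand, with capitals at matches to the motifs searched.
Hspd1 to Hspe1, chr1:55087933-55088147: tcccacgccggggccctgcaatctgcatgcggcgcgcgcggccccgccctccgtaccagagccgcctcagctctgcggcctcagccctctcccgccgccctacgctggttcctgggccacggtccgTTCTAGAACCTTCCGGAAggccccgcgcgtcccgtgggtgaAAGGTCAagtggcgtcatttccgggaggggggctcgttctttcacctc
Hspb1, chr5:135887669-135887918: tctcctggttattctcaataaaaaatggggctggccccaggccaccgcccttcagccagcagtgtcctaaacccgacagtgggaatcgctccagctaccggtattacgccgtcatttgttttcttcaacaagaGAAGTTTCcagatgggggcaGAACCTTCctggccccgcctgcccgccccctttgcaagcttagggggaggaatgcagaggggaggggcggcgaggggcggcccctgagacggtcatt
The first stretch runs from the base after the nearer start of Hspd1 (55087932, minus strand) to the base before Hspe1 (55088148, plus strand). RefSeq also lists an Hspd1 start at 55088243, so the stretch lies within the span of that longer transcript.

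Both strands of the 250 bases before each start were searched for 4 motifs, and 6 of the 10 members had an entry in the promoter table. The heat-shock element motifs GAANNTTC and TTCNNGAA, which can overlap each other, occurred in 6.69% and 7.17% of 32851 RefSeq promoters. In the stretch shared by Hspd1 and Hspe1 they formed 1 unbroken run with 1 match of the former and 2 of the latter. Hspb1 had 2 matches of GAANNTTC, the nearer one 97 bases before its start. AAGGTCA, a half-site of the oestrogen-related receptors with which the PGC-1 coactivators act, occurred in 4.08% of promoters. It lay once in the shared stretch, 48 bases before Hspe1, and once 143 bases before Trap1. TGATGNAA, a composite site of ATF4 and CHOP, occurred in 3.45% of promoters and in no member promoter. The windows of Lonp1 and Clpp held none of the 4. These matches describe letters and not binding.

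Every value below is the log2 ratio of an array relative to that array's median gene. Before this centring the median gene lay between -1.85 and 0.30 on the 12 arrays. Beta 3 did not enter the fit, since an earlier analysis of these data found it to stand apart. Its ratios correlated at -0.30 with those of beta 1 and 0.05 with beta 2, and 27.6% of its probes had no defined ratio. Direct 3 and double 3, with 23.7% and 21.5% of probes undefined, were kept. On 6 of the arrays the genotype in the dye labels was not that of the title, and groups follow the titles. Probes that were dim on none of the arrays stood above those dim on 9 or more by 1.01 to 2.47 on the 3 alpha arrays, on beta 1 and 2, and on double 1. That difference was -0.11 on double 2, -2.16 on double 3 and -3.38 to -0.67 on the direct arrays. Ppargc1a fell on the alpha arrays (-1.46 ± 1.04, SD, n = 3; adjusted p = 0.0177). Both RNAs of the direct arrays come from PGC-1alpha -/- genotypes, yet Ppargc1a was at 1.01, 0.59 and 0.79 there (adjusted p = 0.14). The reason was not tested. Ppargc1b rose on the alpha arrays (1.13 ± 0.37, SD, n = 3; adjusted p = 0.0251). On the beta arrays it was at 0.76 ± 0.20 (SD, n = 2; adjusted p = 0.305) and on the double arrays at 0.31 ± 0.04 (SD, n = 3; adjusted p = 0.622), below 0 in neither mean, and it fell by 1.11 on the direct arrays (SD 0.88, n = 3; adjusted p = 0.0306). On the arrays against floxed control the deletion of Ppargc1b in the beta and in the double knockout therefore rests on the titles. The fall on the direct arrays is relative to PGC-1alpha -/- muscle, where Ppargc1b stood above the floxed control. Limma tested 11374 genes, among them 9 of the 10 members. Lonp1 was not tested, since its ratio on beta 1 fell on a fraction that dim or equal signals give and was left out. Ratios hold no level, so the presence of muscle markers could not be read from them, and 8 of 10 muscle fibre markers were measured in the fit. The alpha, beta and double comparisons share the floxed control genotype, and the alpha and direct comparisons share the PGC-1alpha -/- genotype. Whether the same RNA was used on several arrays is not given in the sources used here.

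Hspe1, the HSP10 lid of the mitochondrial folding chamber, fell in muscle without PGC-1alpha and was higher in the double knockout when both were hybridised together. On chromosome 1 (55088148 to 55091317), it has 1 probe. On the alpha arrays its log2 ratios were -1.16, -1.45 and -1.27. On beta 1 and beta 2 they were -1.18 and -1.07. These 5 values are all below -1. It was at -0.84, -0.27 and 0.08 on the double arrays, above all 5 of the alpha and beta values. On the direct arrays it was at 1.12, 1.95 and 1.85, all above 0.

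The Hspe1 mean of -1.29 ± 0.14 (SD, n = 3) on the alpha arrays, a fold of 2.45 lower, passed limma's test (adjusted p = 0.007). It was 1 of 4 members past the threshold there, where 16.4% of all genes were, and the 1 of them that was lower, as were 5.36% of all genes. The mean of 1.64 ± 0.45 (SD, n = 3) on the direct arrays, 3.12-fold higher in the double knockout, passed as well (adjusted p = 0.00404) and was the 1 member to do so. Of all genes 13.8% passed there, 5.53% as higher and 8.23% as lower. Without centring, which lowers each direct mean by the -0.68 of the median gene, 38 genes were higher and 1965 lower on the direct arrays, against 629 and 936. On the alpha arrays that split was 97 and 86 against 1258 and 610, and on the double arrays 10 and 31 against 111 and 178. The beta mean of -1.13 ± 0.08 (SD, n = 2) had an adjusted p of 0.112, and the double mean of -0.34 ± 0.47 (SD, n = 3) one of 0.468. On beta 3, which was left out, Hspe1 was at -2.35. Fewer cells of a type and less RNA per cell cannot be told apart in whole muscle.

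The direct arrays and the arrays against floxed controls gave 2 estimates of the same difference for Hspe1. Through the floxed control, the double minus the alpha mean was 0.95 (95% interval 0.22 to 1.68; adjusted p = 0.242). The direct estimate exceeded it by 0.69 (95% interval -0.21 to 1.59). No member passed limma's test of the double minus the alpha mean, where 0.123% of all genes did. There 1 member had an unadjusted p under 0.05, as did 1673 of 11374 genes. In the test of the direct minus the indirect estimate 0 members and 0% of all genes passed, with 0 members and 411 genes at an unadjusted p under 0.05. Dim probes stood below bright ones on the alpha arrays, where Hspe1 was below 0. They stood above bright ones on the direct arrays, where Hspe1 was above 0. The signal of Hspe1 is not given, so the part of this difference in its ratios was not tested. Without alpha 3 the alpha call of Hspe1 was lost (adjusted p = 0.0528). Its direct call was lost in a fit of the direct arrays alone (1.64; adjusted p = 0.195), where 0 genes passed. Without centring the direct value was 0.97 (adjusted p = 0.129). A fit with a dye term takes this value from the double minus the alpha mean. Its 0.95 (adjusted p = 0.251) therefore repeats the indirect estimate and is no separate check.

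**Figure D1:**
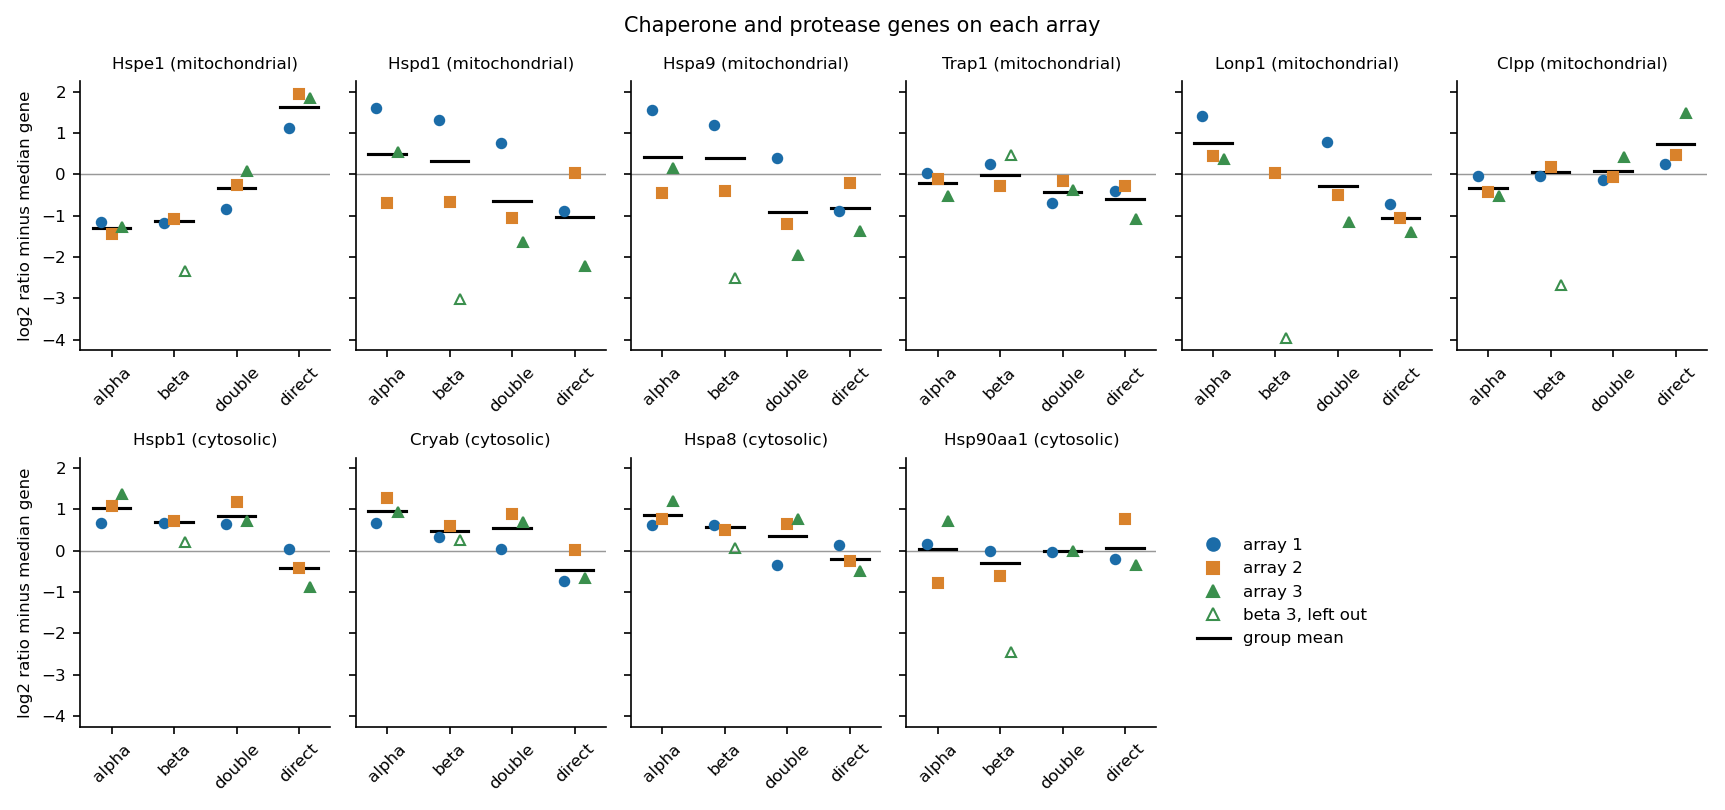
Log2 ratio minus the array's median gene (y axis) of the 10 genes by array group (x axis), with 1 point per array, coloured by the number in the title, and a bar at the group mean. Hspe1 lies below -1 on every alpha array and above 1 on every direct array, while Hspd1 and Hspa9 are above 0 on each array numbered 1 against floxed control and below 0 on each numbered 2; beta 3 (open) was left out of the fit.

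Hspd1, the HSP60 chamber that Hspe1 caps, passed in no comparison of the centred values, and on the direct arrays passed without centring (-1.70; adjusted p = 0.0491). On chromosome 1 (55077833 to 55088243), its log2 ratios were 1.60, -0.70 and 0.55 on the alpha arrays. They were 1.32 and -0.66 on the beta arrays and 0.76, -1.06 and -1.64 on the double arrays. Its direct ratios were -0.88, 0.03 and -2.22. Each group of arrays spans 0. The fitted mean was 0.49 (95% interval -0.79 to 1.76; adjusted p = 0.589) on the alpha and -1.02 (95% interval -2.30 to 0.25; adjusted p = 0.249) on the direct arrays. Hspe1 minus Hspd1 was -2.77, -0.75 and -1.82 on the alpha arrays, below 0 on each. It was 2.00, 1.92 and 4.07 on the direct arrays, above 0 on each. The same difference was -1.61, 0.79 and 1.72 on the double arrays, with no common sign.

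The ratios of Hspd1 sorted by the number in the title. On the arrays against floxed control numbered 1 its ratios lay between 0.76 and 1.60, and on those numbered 2 between -1.06 and -0.66, without overlap. Among the arrays against floxed control, the dye labels name the alpha knockout on those numbered 1 and the beta knockout on those numbered 2. Grouped by these labels, Hspd1 was at 1.23 ± 0.43 (SD, n = 3; adjusted p = 0.0666) for alpha and -0.81 ± 0.22 (SD, n = 3; adjusted p = 0.327) for beta. The same grouping left Hspe1 at -1.06 ± 0.19 (SD, n = 3; adjusted p = 0.0316) for alpha. It ended the alpha calls of the cytosolic members, with Hspb1 at 0.67 (adjusted p = 0.0555), Cryab at 0.35 (adjusted p = 0.278) and Hspa8 at 0.31 (adjusted p = 0.365). Ppargc1a was at -0.52, -2.57 and -1.29 on the alpha arrays and at -0.88, -1.96 and -1.07 on the double arrays. It was at -0.07 and -0.47 on beta 1 and beta 2, above those 6 values, with beta 2 close to alpha 1. On beta 3, which was left out of the fit, Ppargc1a was at -0.54, below alpha 1. Alpha 2 and double 2, which hold its lowest values, carry the label of the beta knockout. Beta 1, which holds the highest against floxed control, carries that of the alpha knockout. The deposited tables of the authors follow the titles.

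Hspa9, the mitochondrial HSP70 on chromosome 18 (34937414 to 34954351), had the same order of arrays as Hspd1 in each group against floxed control. Its log2 ratios were 1.56, -0.45 and 0.16 on the alpha arrays and 1.19 and -0.40 on the beta arrays. They were 0.39, -1.20 and -1.95 on the double and -0.89, -0.22 and -1.37 on the direct arrays. All direct values lie below 0, and the other groups span it. The double mean of -0.92 ± 1.19 (SD, n = 3; adjusted p = 0.342) and the direct mean of -0.83 ± 0.58 (SD, n = 3; adjusted p = 0.264) did not pass. By dye label Hspa9 was at 1.05 ± 0.60 (SD, n = 3; adjusted p = 0.0738) for alpha.

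Lonp1, the matrix protease on chromosome 17 (56614297 to 56626903), was at 1.42, 0.45 and 0.38 on the alpha arrays, all above 0. On beta 2 it was at 0.03. Its double ratios were 0.78, -0.50 and -1.15, and its direct ratios -0.72, -1.05 and -1.40, all below 0. The gene was not tested. The deposited linear ratio left out on beta 1 was 2.211. Clpp, the peptidase on the same chromosome (56990264 to 56996371), ran the other way. It was at -0.03, -0.43 and -0.52 on the alpha, -0.05 and 0.17 on the beta, and -0.14, -0.06 and 0.42 on the double arrays. Its direct ratios were 0.24, 0.46 and 1.48, all above 0, and their mean of 0.72 ± 0.66 (SD, n = 3) had an adjusted p of 0.082. The 2 proteases of the matrix thus had direct ratios of opposite sign.

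Trap1, the matrix HSP90 on chromosome 16 (4039971 to 4077840), lay near the median gene as a mean of its 2 probes. The means were -0.20 ± 0.29 (SD, n = 3) on the alpha, -0.02 ± 0.37 (SD, n = 2) on the beta and -0.42 ± 0.27 (SD, n = 3) on the double arrays, and none passed. Trap1 direct ratios were -0.41, -0.28 and -1.08 (adjusted p = 0.111). This mean hid probes of opposite sign. Probe A_51_P402435 was at 2.11, 0.84 and 1.01 on the alpha arrays, and probe A_52_P210085 at -2.03, -1.07 and -2.07. In a fit of 16679 probes, of which 24.6% were past the threshold on the alpha arrays, the latter passed (-1.73; adjusted p = 0.0122) and the former had an adjusted p of 0.0646. In the authors' deposited table the latter probe is described as an unclassifiable cDNA, and whether it measures Trap1 was not tested.

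With a gene's probes averaged, 3 of 4 cytosolic members rose in muscle without PGC-1alpha, where 11.1% of all genes were higher. Hspb1, the small heat-shock protein HSP27 in humans, lies on chromosome 5 (135887919 to 135889563) and has 1 probe. Its log2 ratios were 0.68, 1.08 and 1.37 on the alpha arrays and 0.67 and 0.72 on the beta arrays. Hspb1 was at 0.66, 1.18 and 0.71 on the double arrays. All 8 values are above 0 and the 3 groups overlap. The alpha mean of 1.04 ± 0.34 (SD, n = 3; 2.06-fold) passed (adjusted p = 0.0142), and the double mean of 0.85 ± 0.28 (SD, n = 3) had an adjusted p of 0.0835. Its direct ratios of 0.05, -0.41 and -0.87 gave a 95% interval of the mean of -0.92 to 0.10.

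Cryab, the alpha-B crystallin that binds desmin and titin, lies on chromosome 9, and its annotated span (50745951 to 50756636) holds that of Hspb2 (50751072 to 50752354). Cryab was at 0.67, 1.28 and 0.93 on the alpha arrays, and the mean of 0.96 ± 0.31 (SD, n = 3) passed (adjusted p = 0.0224). On the beta arrays it was at 0.34 and 0.61, on the double arrays at 0.05, 0.90 and 0.69, and on the direct arrays at -0.74, 0.01 and -0.65. Probe A_52_P106482 carried this, at 1.37, 1.71 and 1.45 on the alpha and 1.30, 1.48 and 1.24 on the double arrays. Fitted alone it passed in both comparisons (1.51, adjusted p = 0.002, and 1.34, adjusted p = 0.0116), where 24.6% and 2.88% of probes did. Probe A_51_P504423 had 0.40 (adjusted p = 0.389) and -0.25 (adjusted p = 0.728). Hspb2, a small heat-shock protein of striated muscle, rose on the alpha arrays (0.32, 1.54 and 1.30; adjusted p = 0.0335) and fell on the direct arrays (-1.31, -1.71 and -1.49; adjusted p = 0.0107).

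Hspa8, the constitutive HSP70 on chromosome 9 (40801276 to 40805202), was at 0.63, 0.77 and 1.21 on the alpha arrays, and the mean of 0.87 ± 0.30 (SD, n = 3) passed (adjusted p = 0.0382). It was at 0.62 and 0.51 on the beta arrays, -0.34, 0.66 and 0.77 on the double arrays, and 0.13, -0.25 and -0.48 on the direct arrays. On the alpha arrays probe A_51_P170371 of Hspa8 was at 0.95, -0.20 and 0.71 and probe A_52_P12877 at 0.31, 1.74 and 1.72. Fitted alone, neither passed there (0.49, adjusted p = 0.173, and 1.26, adjusted p = 0.0641), where 24.6% of probes did. The alpha call of Hspa8 thus rests on the mean of its probes. These probes had opposite signs on every direct array. Probe A_51_P170371 was at 1.22, 0.95 and 0.73, and passed alone as higher (0.97; adjusted p = 0.024), where 19.5% of probes passed. Probe A_52_P12877 was at -0.96, -1.45 and -1.70 (adjusted p = 0.0553). No direction for Hspa8 on the direct arrays holds for both probes. Hsp90aa1, the inducible HSP90 on chromosome 12 (110691036 to 110696395), was at 0.17, -0.78 and 0.73 on the alpha, 0.00 and -0.61 on the beta, -0.02 and -0.01 on the double, and -0.20, 0.78 and -0.35 on the direct arrays. It passed in no comparison, with an alpha mean of 0.04 (95% interval -0.67 to 0.75).

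**Figure D2:**
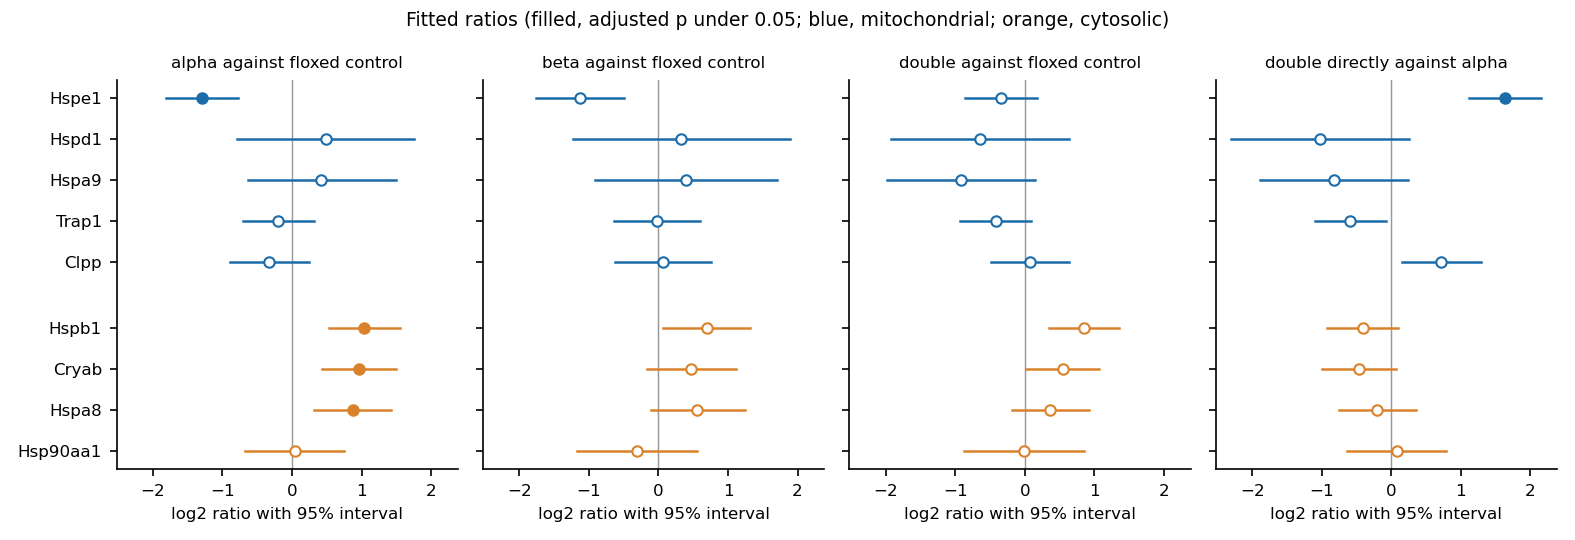
Fitted log2 ratio (x axis, with its 95% interval) of the 9 tested members (y axis) in 4 comparisons, mitochondrial members in blue and cytosolic ones in orange; filled points had an adjusted p under 0.05. Hspe1 fell and Hspb1, Cryab and Hspa8 rose on the alpha arrays, and Hspe1 rose on the direct arrays.

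The alpha calls of the cytosolic members depended on single arrays and on the fit. Hspb1 lost its call without alpha 2 (adjusted p = 0.0633) or alpha 3 (adjusted p = 0.119). Cryab lost it without any one of the alpha arrays (adjusted p = 0.0655 to 0.117). Hspa8 lost it without any one of the alpha arrays, beta 1 or beta 2 (adjusted p = 0.0563 to 0.221). Their values stayed positive, between 0.70 and 1.22. A dye term ended all 3 calls (adjusted p = 0.0507 for Hspb1, 0.0991 for Cryab and 0.336 for Hspa8), as did a fit of the alpha arrays alone (0.0587, 0.0636 and 0.0728). With the dye term the alpha value comes from the double minus the direct mean. With 1 probe per gene Cryab was at 0.40 (adjusted p = 0.373) and Hspa8 at 0.48 (adjusted p = 0.145). On the beta arrays 0 members passed limma's test, where 0.00879% of all genes passed. There 2 of 9 tested members had an unadjusted p under 0.05, as did 1934 of 11374 genes. For the double arrays 0 members passed, where 2.54% of all genes passed. Again 2 of 9 had an unadjusted p under 0.05, as did 2108 of 11374 genes.

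Probes of 1 gene differed by amounts as large as the differences between groups for Trap1, Hspa8, Cryab and Hspd1. Across the 11 arrays the probes of Trap1 correlated at -0.86 and those of Hspa8 at -0.64. Those of Cryab correlated at 0.50 over the 10 arrays on which both had a value. Hspd1 (0.68, 11 arrays) and Hspa9 (0.91, 10 arrays) had probes that ran together over the arrays. For Hspd1 both probes were above 0 on alpha 1 (1.03 and 2.17) and below 0 on alpha 2, where the higher was at -0.40. The Hspd1 probes still lay apart in size, by a mean of -0.98 on the alpha and 1.77 on the direct arrays. The arrays share reference genotypes, and these correlations are given as a description.

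**Figure D3:**
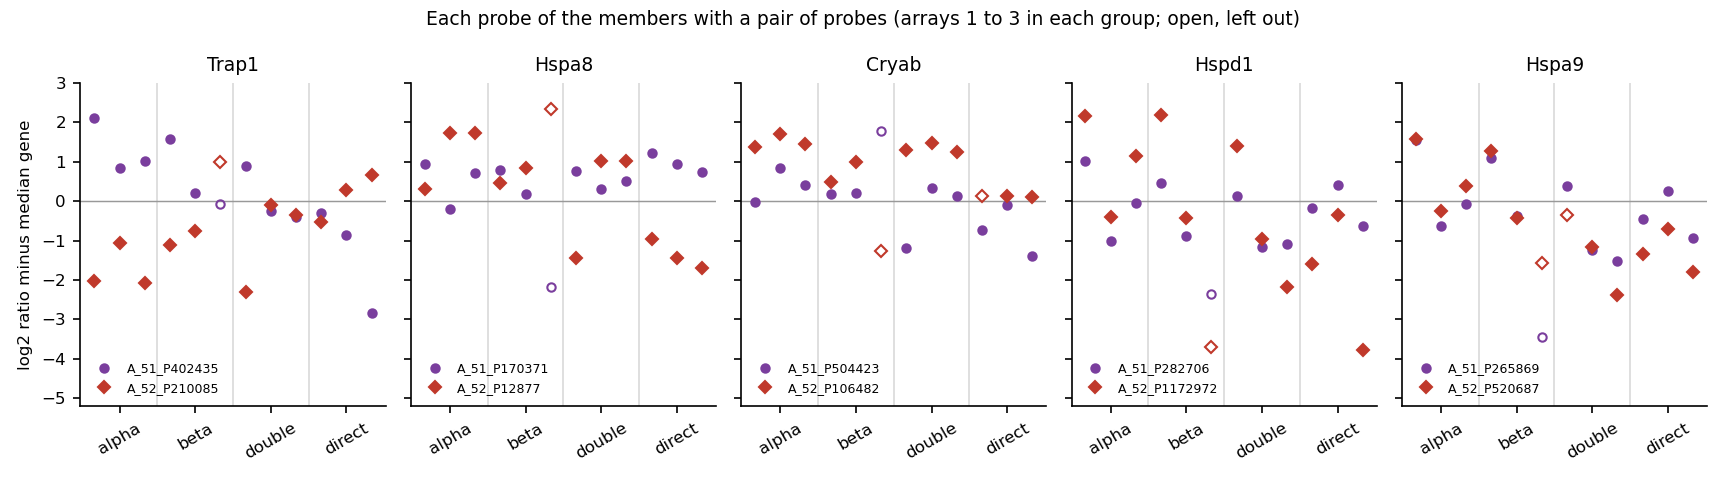
Log2 ratio minus the median gene (y axis) of each probe of the 5 members with 2 probes, on arrays 1 to 3 of each group (x axis); open symbols were left out of the fit. The Trap1 probes lie on opposite sides of 0 on each alpha array and the Hspa8 probes on each direct array, while the Hspa9 probes run together.

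Averaged per array, the mitochondrial members stood below the cytosolic ones in the knockouts against floxed control on 2 of 3 arrays of the alpha and double groups, and not on the direct arrays. The mitochondrial minus the cytosolic mean was 0.04, -1.04 and -1.26 on the alpha arrays. It was -0.11 and -0.67 on the beta arrays, and -1.87 on beta 3, which was left out. For the double arrays it was -0.05, -1.45 and -1.31. All 3 arrays numbered 1 lay near 0 and all others against floxed control lay at -0.67 or below, so the number in the title again separated the arrays. Group means were -0.75 ± 0.69 (SD, n = 3) for alpha, -0.39 ± 0.40 (SD, n = 2) for beta and -0.94 ± 0.77 (SD, n = 3) for double, each spread close to its mean. No test was made of this score, since the members were chosen with results known.

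On the direct arrays the mitochondrial minus the cytosolic mean was -0.06, 0.12 and 0.13, a mean of 0.06 ± 0.11 (SD, n = 3). Without Hspe1 it was -0.34, -0.24 and -0.33, below 0 on each array. Without Hspe1 the alpha values were 0.38, -0.84 and -1.05 and the double values 0.13, -1.51 and -1.48. On the alpha arrays the median of the 6 mitochondrial members was 0.11 and that of the 4 cytosolic ones 0.92, against 0.09 over all genes tested. Over the 5 mitochondrial members that were tested, without Lonp1, it was -0.20. That is the value of Trap1, whose probes had alpha means of 1.32 and -1.73. The sign of the median thus depended on Lonp1 and on the averaging of the Trap1 probes. On the double arrays the medians were -0.38 and 0.46, against -0.01.

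**Figure D4:**
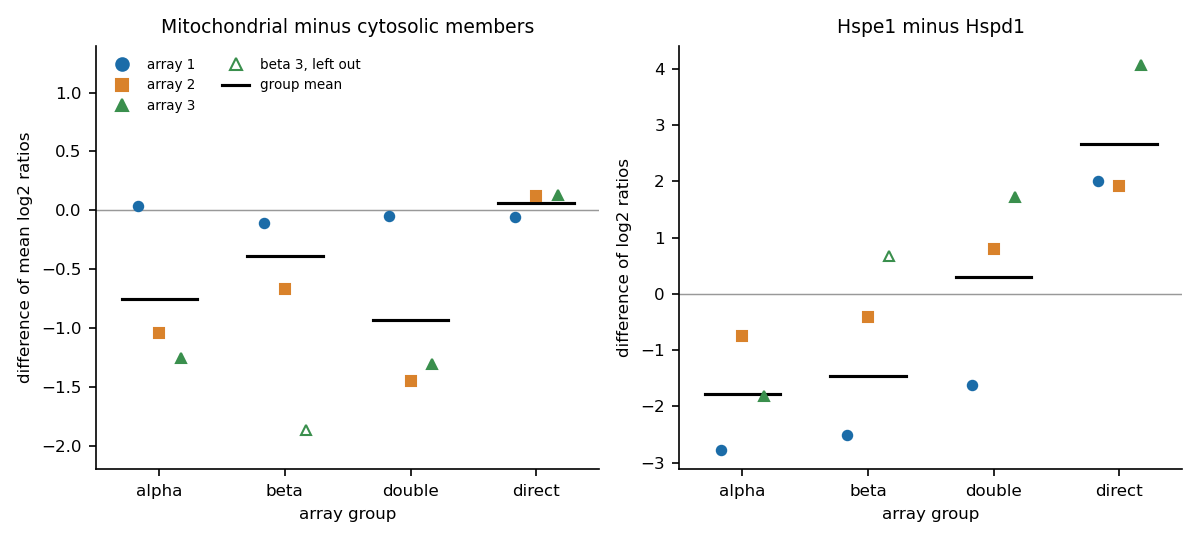
Left, the mean log2 ratio of the mitochondrial members minus that of the cytosolic members (y axis) by array group (x axis), and right, the log2 ratio of Hspe1 minus that of Hspd1, with 1 point per array and a bar at the group mean. The arrays numbered 1 lie near 0 on the left, and Hspe1 minus Hspd1 is below 0 on each alpha array and above 0 on each direct array.

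The wider folding machinery was read from 132 genes in 9 lists, of which 116 were measured. In muscle without PGC-1alpha 32 of these rose and 2 fell, a share of 29.3% against 16.4% of all genes. Their median log2 ratio was 0.59, against 0.09 over all genes. On the direct arrays 5 rose and 18 fell, a share of 19.8% against 13.8%, with a median of -0.23 against -0.09. In the double knockout 4 rose, against 0.976% of all genes, and 1 fell, 4.31% in all against 2.54%. On the beta arrays 0 of 116 passed limma's test, where 0.00879% of all genes did. Of the 116, 29 had an unadjusted p under 0.05 there, as did 1934 of 11374 genes. The counts of single lists are to be read against the shares of all genes, 11.1% higher and 5.36% lower on the alpha arrays, 5.53% and 8.23% on the direct arrays, and 0.976% and 1.56% on the double arrays. Of the 55 companion calls given below, 10 were kept in every fit without 1 array that could test the gene. These were Atf4, Cebpb and Atf5 on the direct arrays, Atf4, Hspa1l and Cct6a on the alpha arrays, Hspb8 on both, and Fkbp5 and Smyd1 on the double arrays. Atf5 and Cct6a could be tested in 9 of the 11 such fits, the others in all 11. A dye term ended 46 of the 55, the arrays of a comparison alone 38, and no centring 34, and 0 reversed. The dye term takes alpha values from the double minus the direct mean and direct values from the double minus the alpha mean. Bright probes ran above dim ones on the alpha arrays and below them on the direct arrays, and the part of this in the lists was not tested.

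Of 10 measured folding partners 2 rose on the alpha arrays, where 11.1% of all genes did. The direct arrays had 1 higher and 5 lower, against 5.53% and 8.23%. Grpel1, the nucleotide exchange factor of mitochondrial HSP70, rose on the alpha arrays to 1.71, 1.07 and 1.61 (adjusted p = 0.00864). It fell on the direct arrays, at -1.18, -1.15 and -1.75 (adjusted p = 0.0133). Timm44, which tethers that HSP70 to the import channel, fell on the direct arrays at -1.02, -1.11 and -1.30 (adjusted p = 0.0119). Bcs1l, which assembles complex III, rose on the alpha arrays (0.91 ± 0.38, SD, n = 3; adjusted p = 0.04) and fell by 1.00 on the direct arrays (adjusted p = 0.0319). Leaving out 1 array ended these Bcs1l calls in 5 of 9 and 4 of 9 fits. Iba57, which takes part in iron-sulphur cluster assembly, fell by 0.99 on the direct arrays (adjusted p = 0.0486). Grpel2 rose on the double arrays, at 2.13, 0.83 and 0.92 (adjusted p = 0.0498), and lost that call without any one array.

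Of 16 measured mitochondrial proteases and prohibitins 3 rose on the alpha arrays, against 11.1% of all genes. Of these genes 4 fell and 0 rose on the direct arrays, against 8.23% and 5.53%. Stoml2, a scaffold of the inner membrane, was at 1.99, 1.25 and 1.53 on the alpha arrays (adjusted p = 0.0245) and at -1.27, -1.06 and -3.50 on the direct arrays (adjusted p = 0.0137). The prohibitin Phb2 was at 1.15, 1.03 and 1.00 on the alpha arrays (adjusted p = 0.0172) and at -0.59, -1.36 and -1.23 on the direct arrays (adjusted p = 0.0204). Its partner Phb fell on the direct arrays at -0.92, -1.46 and -0.96 (adjusted p = 0.00827), as did the protease subunit Afg3l1 (-1.27 ± 0.45, SD, n = 3; adjusted p = 0.0215). Maip1, which binds the m-AAA protease, rose on the alpha arrays (0.81 ± 0.30, SD, n = 3; adjusted p = 0.0356).

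Outside the mitochondrial lists, 2 of 7 measured small heat-shock genes and 5 of 18 of the HSP70 list rose on the alpha arrays. So did 3 of 16 DNAJ genes, 5 of 12 of the HSP90 list and 5 of 13 of TRiC and prefoldin. Of all genes 11.1% rose there. In the HSP70 list 1 fell there and in TRiC and prefoldin 1, against 5.36%. Hspb8, which works with BAG3 in clearing damaged sarcomere proteins, was at 2.26, 2.42 and 1.09 on the alpha arrays (adjusted p = 0.00445). It was at -1.31, -2.09 and -2.38 on the direct arrays (adjusted p = 0.00575). Cct6a, a subunit of the TRiC chaperonin that folds actin and tubulin, was at 2.08, 2.13 and 1.87 on the alpha arrays (adjusted p = 0.002) and fell on the direct arrays (-1.17 ± 0.25, SD, n = 3; adjusted p = 0.014). Hspa1l, an HSP70, rose on the alpha arrays (1.44 ± 0.18, SD, n = 3; adjusted p = 0.00511). Hspa1l rose in the double knockout as well, to 1.32 ± 0.10 (SD, n = 3; adjusted p = 0.0234).

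Others of the HSP70 system moved on the alpha arrays too. Bag1, a nucleotide exchange factor of HSP70, rose by 1.53 (adjusted p = 0.0325), and Hspa2, an HSP70, by 1.27 (adjusted p = 0.0201). Stub1, the ubiquitin ligase CHIP that marks HSP70 clients, rose by 1.17 (adjusted p = 0.00783). Among the DNAJ proteins, which hand clients to HSP70, Dnajb2 rose by 1.94 (adjusted p = 0.013), Dnajc8 by 1.79 (adjusted p = 0.00804) and Dnaja4 by 1.65 (adjusted p = 0.0172). On the double arrays Dnaja4 was at 1.66 ± 0.81 (SD, n = 3; adjusted p = 0.0498). On the direct arrays 0 of the 16 DNAJ genes passed limma's test, where 13.8% of all genes did. Of the 16, 6 had an unadjusted p under 0.05 there, as did 3585 of all 11374 genes. Hspa14, an HSP70 that works at the ribosome, rose there by 0.82 (adjusted p = 0.0418).

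Co-chaperones of HSP90 and subunits of the chaperonin system followed on the alpha arrays. Stip1, the adaptor between HSP70 and HSP90, rose by 0.90 (adjusted p = 0.02), the p23 gene Ptges3 by 1.01 (adjusted p = 0.0427) and Aarsd1 by 1.03 (adjusted p = 0.0347). Ptges3 fell on the direct arrays by 1.29 (adjusted p = 0.0199), and Fkbp4, an immunophilin of steroid receptor complexes, by 0.85 (adjusted p = 0.037). The TRiC subunits Cct7 and Cct4 rose on the alpha arrays by 1.32 (adjusted p = 0.0129) and 1.28 (adjusted p = 0.0492). Pfdn1, a subunit of prefoldin, which hands clients to TRiC, fell there by 1.26 (adjusted p = 0.00928). Another prefoldin gene, Pfdn6, fell on the direct arrays by 1.11 (adjusted p = 0.0307) and Cct5 rose there by 0.81 (adjusted p = 0.0351).

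In the double knockout 2 genes of the HSP90 list moved in opposite directions. Fkbp5, a co-chaperone of steroid receptors, was at 2.44, 1.32 and 1.56 there (adjusted p = 0.00608), and rose on the alpha arrays as well (1.25 ± 0.21, SD, n = 3; adjusted p = 0.0101). Smyd1, a muscle methyltransferase that works with HSP90 on myosin, was at -1.19, -1.42 and -1.44 (adjusted p = 0.00451). On the alpha arrays Smyd1 was at -0.28, -0.56 and -0.33 (adjusted p = 0.164), and the double minus the alpha mean of -0.96 did not pass (adjusted p = 0.15). Of 16 measured chaperones of the endoplasmic reticulum 4 rose on the alpha arrays, against 11.1% of all genes, and 0 passed on the double arrays. Manf rose by 1.00 (SD 0.51, n = 3; adjusted p = 0.042), a call that 7 of 11 fits without 1 array ended. Sdf2l1 rose by 0.94 (adjusted p = 0.0312), Ppib, a prolyl isomerase, by 0.94 (adjusted p = 0.0453), and Dnajb9, a co-chaperone of BiP, by 0.90 (adjusted p = 0.0272). Dnajb9 fell on the direct arrays by 0.93 (adjusted p = 0.0267), and Sil1, the nucleotide exchange factor of BiP, rose by 0.78 (adjusted p = 0.0267).

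Among 8 measured stress transcription factors, 3 rose on the alpha arrays, against 11.1% of all genes. Directly against alpha 1 rose and 2 fell, against 5.53% and 8.23%. Atf4, the main factor of the integrated stress response, was at 1.70, 1.55 and 1.84 on the alpha arrays (adjusted p = 0.00191). Atf4 was at 0.16, 0.35 and -0.24 on the double arrays, and on the direct arrays at -1.57, -1.56 and -1.81 (adjusted p = 0.00249). Its difference through the floxed control, -1.61, had an adjusted p of 0.0511. Cebpb was at 1.45, 1.34 and 1.61 on the alpha and -1.39, -1.99 and -2.51 on the direct arrays (adjusted p = 0.00533 and 0.00314). By dye label the alpha value of Atf4 was 0.94 (adjusted p = 0.104) and that of Cebpb 0.47 (adjusted p = 0.384). Nfe2l1, which drives proteasome genes, rose on the alpha arrays by 0.88 (adjusted p = 0.0283). Atf5, a factor of the mitochondrial unfolded protein response, rose on the direct arrays at 1.17, 1.42 and 1.65 (adjusted p = 0.00575), and without centring was at 0.74 (adjusted p = 0.243). It was at -0.63 and -0.70 on alpha 1 and alpha 3 (adjusted p = 0.117). On beta 1 and beta 2 Atf5 was at 0.06 and 0.23, where Hspe1 was below -1, and on the double arrays at -0.07, 0.37 and 0.79.

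**Figure D5:**
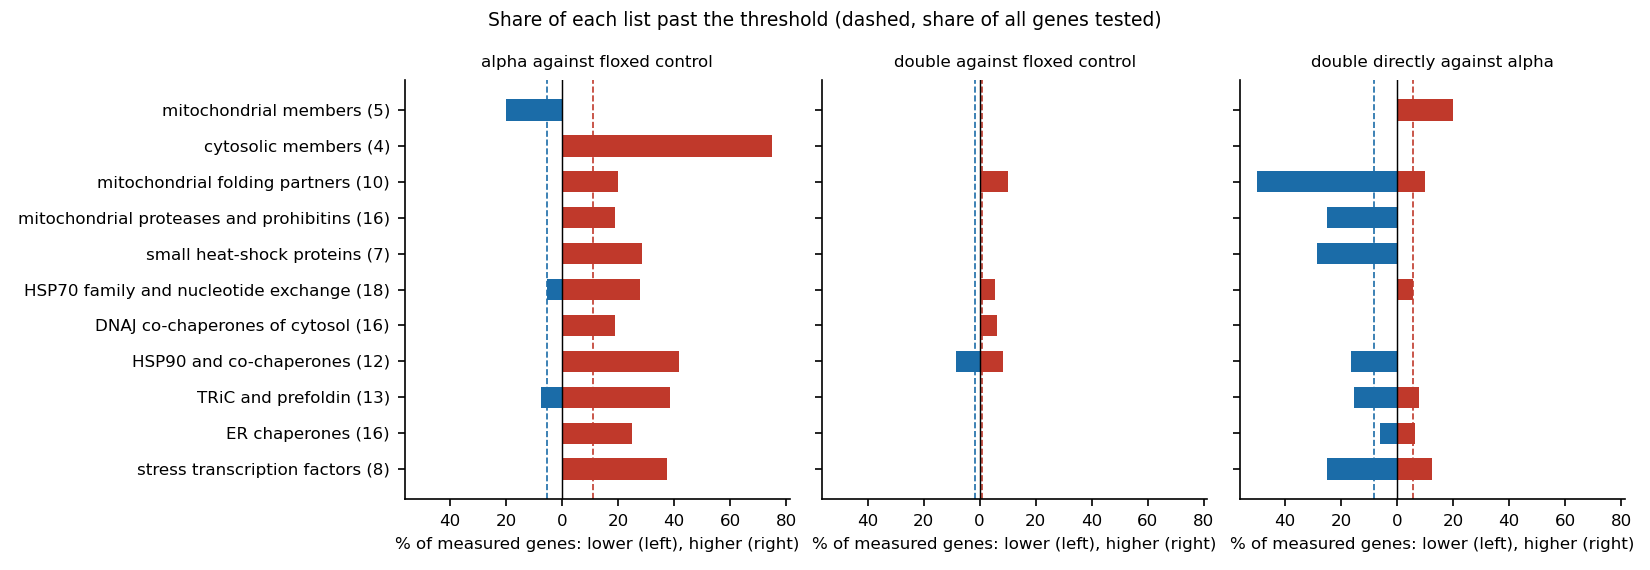
Share of the measured genes of each list (y axis, number measured in brackets) past the threshold in 3 comparisons (x axis, percent, lower to the left and higher to the right); dashed lines give the shares over all genes tested. Each of the 9 companion lists exceeds the dashed share of higher genes on the alpha arrays, and 6 of the 9, the mitochondrial ones among them, exceed that of lower genes on the direct arrays.

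Some marker lists of cell types moved beside these results. Of 5 measured red blood cell genes 2 rose on the alpha arrays, where 11.1% of all genes did. Their array medians were 0.44 to 1.51 there against -0.27 to 0.05 on the direct arrays. Of 8 endothelial genes 3 fell on the direct arrays, where 8.23% of all genes did. Their array medians were -1.12 to -0.40 there against 0.22 to 0.40 on the alpha arrays. Of 8 muscle fibre genes 3 rose on the alpha arrays, against 11.1% of all genes, and 4 on the direct arrays, against 5.53%. The direct array medians of these were 0.32 to 1.66. Of 6 macrophage and leukocyte genes 1 fell on the alpha and 1 rose on the direct arrays. Of 9 fibroblast and matrix genes 1 rose and 1 fell in each of these comparisons. Of 3 Schwann cell and nerve genes 1 fell on the alpha arrays, and 0 of 4 adipocyte genes passed in either. The part of these cells in the chaperone results was not tested.

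The authors' deposited tables list mean linear ratios to floxed control for 10 of the 15 member probes, 5 in the table of higher and 5 in that of lower genes. In the authors' deposited table Hspe1 is among the lower genes, at 0.43 ± 0.06 for alpha, 0.45 ± 0.01 for beta and 0.77 ± 0.14 for double (mean and SEM). The authors' deposited table lists Hspb1 as higher at 2.14 ± 0.12, 1.59 ± 0.01 and 1.75 ± 0.31 and probe A_52_P106482 of Cryab at 2.98 ± 0.23, 1.67 ± 0.28 and 2.41 ± 0.25. Hspd1 stands in both of the authors' deposited tables, with probe A_52_P1172972 at 2.78 ± 1.44 for alpha in that of higher genes and probe A_51_P282706 at 0.62 ± 0.18 for double in that of lower genes. Hspa9 is in the authors' deposited table of lower genes with both probes, at 0.45 ± 0.16 and 0.65 ± 0.27 for double, although its alpha means were 1.90 ± 0.89 and 1.71 ± 0.95. Those means matched the arrays grouped by title for 100% of probes within 0.006, for beta without array 3.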

How the data were processed

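Cy5 over Cy3 ratios of 12 arrays (40928 probes) were read from the deposited value table. By its values, the authors' ratio, written to 3 decimals, was multiplied by 1 factor per array. Scanner and background correction: not given in the sources used here. The authors also deposited tables of mean ratio, a linear fold against floxed control, with its SEM. Ratios of 0 or below and each array's repeated maximum (1e+05 times the factor) were treated as undefined. Fractions with whole numbers of at most 10 above and below, within 0.0006 of the raw ratio, were left out as dim or equal signals. Log2 ratios of a gene's probes were averaged and centred on the array's median gene.

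A gene needed 2 values in every group. Limma 3.58.1 (R 4.3.3; lmFit, eBayes, two-sided, Benjamini-Hochberg over 11374 genes at 0.05) fitted the 4 title groups with 1 shared spread, without beta 3. Each ratio is taken against the reference RNA on its own array. The spread between reference mice enters the test only if that RNA differed between arrays, which is not given. The fit was tested on simulated data. The number of arrays limits precision, and signal over background is not in the files used.

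The members and lists were chosen with earlier results of these data known. All 10 members are named. Past the threshold, the 4 companion genes with the largest changes are named per list and comparison. Same-numbered arrays against floxed control deviated from their group means together (r 0.12 to 0.48 in 7 of 7 pairs). Same-numbered pairs with a direct array did not (r above 0.1 in 2 of 8). Pairing and a shared technical pattern cannot be told apart here, and the main fit holds no term for the number. Of 66 array pairs, 0 were identical. Alternatives covered beta 3, dim ratios, centring, array weights, a dye term, the replicate block, probes, groups by dye label and each array left out.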

Additional observations from a re-analysis of the deposited data

How the results depend on the processing

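Genes past the threshold numbered 1868 on the alpha, 1 on the beta, 289 on the double and 1565 on the direct arrays, 14 for double minus alpha and 0 for direct minus indirect. With beta 3 kept these were 284, 0, 29, 262 and 0 for the first 5, and without centring 183, 0, 41 and 2003 on the alpha, beta, double and direct arrays (38 higher and 1965 lower on the last) and 0 for double minus alpha. With dim ratios kept they were 0 on the beta and 72 on the double arrays and 2 for double minus alpha. All 3 together gave 4, 0, 0, 0 and 0. Array weights gave 4839, 1497 and 633 on the arrays against floxed control and 627 for double minus alpha. A dye term gave 575, 0, 1 and 14 for alpha, beta, double and direct, the last taken from the double minus the alpha mean. One probe per gene gave 2878, 79, 455, 2357 and 36, and the arrays of a comparison alone 1045, 0, 0, 0 and 0. Dye labels as groups, chosen after seeing the data, gave 112, 2, 976 and 0 for beta, double, direct and double minus alpha. The replicate block gave 0 on the beta arrays and 6 for double minus alpha, and changed no member's call. Leaving out 1 array gave 316 to 2097, 0 to 3, 63 to 306, 327 to 1697, 1 to 47 and 0 to 0.

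Mitochondrial minus cytosolic members ranged over -1.15 to -0.50 (alpha), -0.67 to -0.11 (beta), -1.38 to -0.68 (double) and 0.03 to 0.13 (direct) when 1 array was left out. With 1 probe per gene it was -0.37 (alpha), -0.24 (beta), -0.66 (double) and -0.06 (direct). That choice also turned Hspa8 on the direct arrays to 0.96, as did its probe A_51_P170371 alone (0.97). Of 2496 gene values under an alternative, 2001 kept their side of the threshold, 486 lost and 7 gained a call and 2 reversed. The alpha value of Hspe1 was -1.99 to -1.06 over the alternatives. Its call was lost with beta 3 kept (adjusted p = 0.0557) and without centring (0.173), and the Hspb1, Cryab and Hspa8 calls were lost under both as well, and with the dye term, the arrays of a comparison alone and dye labels as groups. The causes were not tested. Array number limits what can be called, most on the 2 beta arrays.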
